A study of Mus musculus with 9 samples.

Results

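Cartilage holds, besides its collagens and proteoglycans, a set of smaller secreted proteins that link fibrils, proteoglycans and cells. The genes described here encode 9 of them: chondromodulin (Cnmd), the small secreted protein Scrg1, the matrilins Matn1, Matn2, Matn3 and Matn4, cartilage oligomeric matrix protein (Comp), chondroadherin (Chad) and cartilage intermediate layer protein (Cilp). They were taken by name, as every probe set whose gene symbol in the platform annotation was on that list, which gave 11 probe sets for 9 of the 18194 named genes. The list was drawn up with the difference between BMP4-treated and untreated spheres in view, so the members were chosen on that readout. Their values against BMP NCSC are given as a description. Tests were run on these contrasts, but nothing is read from the members' calls in them. The list holds all 4 matrilins of the mouse. The genes lie on chromosomes 14 (Cnmd), 8 (Scrg1 and Comp), 4 (Matn1), 15 (Matn2), 12 (Matn3), 2 (Matn4), 11 (Chad) and 9 (Cilp) of the mouse reference GRCm38.p6.

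The samples were passage 3 neurospheres, free-floating cell colonies, from C57BL/6J mouse embryos of embryonic day 12.5, measured on 9 Affymetrix arrays. Spheres from dorsal root ganglia (DRG) grown in serum-free medium with 20 ng/ml bFGF, 20 ng/ml EGF and 0.5 U/ml heparin are called rNCSC, spheres from spinal cord in the same medium SCSC, and DRG spheres in that medium with 10 ng/ml BMP4 added BMP NCSC, with 3 arrays each. All groups therefore had both growth factors, and no group had BMP4 alone or was uncultured tissue. No genetic change is named for any group. Separate embryos or cultures are not stated for the arrays of a group, so p-values measure the spread between these arrays, which may be technical.

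Cartilage forms when mesenchymal cells, which in the head come from the neural crest, condense and begin to secrete a matrix of type II collagen fibrils in an aggrecan gel. BMP signals are among the inducers of that step. Matrilins are adaptors built around von Willebrand factor A domains that join collagen fibrils to aggrecan and to each other. Matn1 and Matn3 are largely restricted to cartilage, whereas Matn2 and Matn4 are also made in loose connective tissue, nerve and other organs. Comp is a pentameric thrombospondin that binds collagens, Chad is a leucine-rich repeat protein that binds cells and collagen, and Cilp is a protein of adult articular cartilage. Chondromodulin is cut from a membrane precursor and keeps blood vessels out of cartilage. Scrg1 was first found in prion-infected brain and is made by glia as well as by mesenchymal cells.

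All values are log2 expression from GCRMA, which draws transcripts that are not expressed together at low values. A group mean under 4, close to the array medians of 3.99 to 4.03, is called the floor here, and a difference that starts at the floor has an uncertain size. Levels of different probe sets cannot be set against each other. A gene was tested if it reached 5 on at least 3 arrays, which 4 of the 9 members did: Cnmd, Scrg1, Matn2 and Matn4. Of these, Cnmd and Matn4 passed through the BMP NCSC arrays alone. The bulk RNA of a sphere does not separate fewer cells of a type from less RNA per cell.

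The spheres were set against markers before the members were described. The marker lists, like the members, were chosen with earlier results of these data known. Id1, Id3, Smad6 and Smad7 are direct targets of BMP signalling. All 4 were called higher in BMP NCSC than in rNCSC and than in SCSC, beside 22.6% and 22.9% of all genes tested. The filter fixed that direction for Smad6 and Smad7, which reached 5 on the BMP NCSC arrays alone, and not for Id1 (3.20 above rNCSC) or Id3 (1.48). Of 10 markers of central nervous system (CNS) progenitors, 9 were called lower in BMP NCSC than in rNCSC and than in SCSC, where 21.3% and 24.0% of all genes tested were lower. For 7 of them the direction was fixed, as they passed the filter only with the other arrays. Nes and Slc1a3 passed with either and were 2.74 and 4.29 below rNCSC. For Sox10, which marks neural crest cells, the group means were 4.14 ± 0.17 (rNCSC), 4.05 ± 0.15 (SCSC) and 11.56 ± 0.22 (BMP NCSC; SD, n = 3 each). For Olig2, a factor of ventral spinal cord progenitors, they were 12.10 ± 0.045, 12.14 ± 0.10 and 1.47 ± 0.15. The rNCSC spheres, named for the crest, thus had this crest marker near the floor and the spinal cord marker at the SCSC level. The array rNCSC 3 stood somewhat apart. Its correlation with the other rNCSC arrays over all probe sets was 0.9895 and 0.9861, against 0.9937 between those, and its correlations with the BMP NCSC arrays, at 0.8744 to 0.8793, were above those of rNCSC 1 and 2. For Scrg1, Sox5 and Adamts12, results that rest on it are given with and without it.

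The members fell into separate patterns, which the plot of all values by array shows. In 3 genes, Cnmd, Matn4 and Scrg1, the BMP NCSC arrays lay far above the other 6. Comp lay between, with a BMP NCSC mean just under 5. Matn2 was well above the floor in all groups, and Matn1, Matn3, Chad and Cilp had means under 4 in every group.

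**Figure D1:**
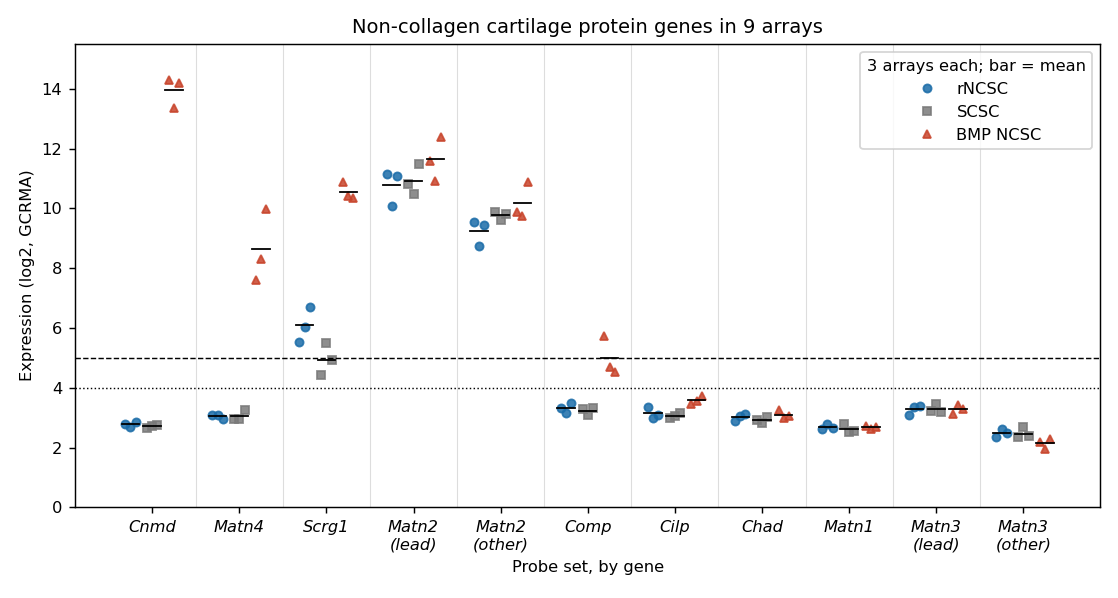
Log2 expression of the 11 probe sets of the 9 genes on each array, with rNCSC as circles, SCSC as squares and BMP NCSC as triangles (3 arrays each). Lead marks the brighter of a gene's probe sets, short bars are group means, the dotted line marks 4 and the dashed line 5. Cnmd, Matn4 and Scrg1 have their BMP NCSC arrays well above the rest, Matn2 is at 8.75 or higher on every array, and the 5 probe sets of Matn1, Matn3, Chad and Cilp stay between 1.96 and 3.73.

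Among all genes tested, 22.6% were called higher in BMP NCSC than in rNCSC and 22.9% higher than in SCSC, where a call means an adjusted p below 0.05 with a log2 difference of at least 1. Of the 4 tested members, 3 were called higher in each comparison. Since the members were chosen with these contrasts known, and since Cnmd and Matn4 could pass the filter only where they were high, nothing is read from that share. Over all 9 members, with those below the filter, the median log2 difference was 0.87 against rNCSC and 0.71 against SCSC, which are the Matn2 values. The medians over all genes tested, a set without genes below the filter, were -0.07 and -0.10. For the same reason nothing is read from these medians. Both comparisons use the same BMP NCSC arrays.

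Cnmd had the largest log2 difference of the members. Its BMP NCSC arrays were at 14.31, 13.37 and 14.18. The rNCSC arrays were at 2.80, 2.69 and 2.87 and the SCSC arrays at 2.66, 2.71 and 2.76. The lowest BMP NCSC array was 10.51 above the highest of the other 6, so the groups were far from overlapping. The means were 13.96 ± 0.51, 2.78 ± 0.091 and 2.71 ± 0.048 (SD, n = 3 each), a log2 difference of 11.17 from rNCSC and 11.25 from SCSC. Both reference groups were at the floor, and the spread among the BMP NCSC arrays was small beside the difference.

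Matn4 was the single matrilin at the floor without BMP4 and above it with BMP4. The BMP NCSC arrays were at 7.61, 8.32 and 9.98. The other arrays all lay between 2.96 and 3.26, with means of 3.05 ± 0.066 in rNCSC and 3.06 ± 0.18 in SCSC (n = 3 each). The BMP NCSC mean of 8.63 ± 1.2 (n = 3) was 5.59 above rNCSC and 5.57 above SCSC. Array BMP NCSC 3 was clearly the highest, and the arrays of this group spanned 2.37, the widest range of any member in any group. Without BMP NCSC 3 the difference from rNCSC was 4.92.

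The sequence before the start sites is shown for Cnmd and Matn4, the members that went from the floor to a high level, and for Matn1, a matrilin that stayed at the floor. The RefSeq promoter table (GRCm38.p6) held 7 start sites for 6 of the 9 members, which were Cnmd, Matn1, Matn3, Matn4, Chad and Cilp. Each sequence is the 250 bases before the start site on the gene's strand, 5′ to 3′, in lower case, with capitals for a match to a searched motif.
Cnmd, chr14:79662184-79662433, minus strand: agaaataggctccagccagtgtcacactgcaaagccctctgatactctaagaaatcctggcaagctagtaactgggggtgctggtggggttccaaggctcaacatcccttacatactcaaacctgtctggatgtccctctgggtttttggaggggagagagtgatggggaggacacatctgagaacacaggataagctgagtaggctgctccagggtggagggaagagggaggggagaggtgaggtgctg
Matn4, first start site, chr2:164405161-164405410, minus strand: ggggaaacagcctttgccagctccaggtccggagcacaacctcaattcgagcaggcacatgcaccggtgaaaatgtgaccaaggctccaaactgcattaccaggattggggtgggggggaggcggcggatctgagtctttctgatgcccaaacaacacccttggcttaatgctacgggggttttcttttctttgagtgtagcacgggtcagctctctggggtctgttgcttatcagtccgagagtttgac
Matn4, second start site, chr2:164404819-164405068, minus strand: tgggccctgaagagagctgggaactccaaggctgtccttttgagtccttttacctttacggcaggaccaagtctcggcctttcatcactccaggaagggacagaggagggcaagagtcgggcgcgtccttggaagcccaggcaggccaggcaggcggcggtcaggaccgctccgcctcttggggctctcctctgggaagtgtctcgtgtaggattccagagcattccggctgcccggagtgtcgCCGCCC
Matn1, chr4:130944135-130944384, plus strand: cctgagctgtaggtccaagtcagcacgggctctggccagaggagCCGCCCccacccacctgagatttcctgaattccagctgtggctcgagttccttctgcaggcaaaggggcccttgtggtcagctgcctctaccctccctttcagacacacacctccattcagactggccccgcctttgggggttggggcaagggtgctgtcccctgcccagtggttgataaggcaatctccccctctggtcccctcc
The motifs searched, on both strands and none containing another, were ACAAT, the core bound by Sox proteins, GGCGCC, a GC-rich element bound by Smad proteins, GGGCGG, the GC box, and TATAAA, the TATA box. In all 32851 promoters of this length in the table, they were present in 27.7%, 9.59%, 32.7% and 12.4%. Neither ACAAT nor GGCGCC was in any of the 7 member sequences. GGGCGG was in 4 of the 7, which include the second Matn4 site and Matn1, and TATAAA in 1, that of Chad. The Cnmd sequence had none of the 4 motifs and no CG dinucleotide, while the Matn4 sequences had 8 and 14 and the Matn1 sequence 4. A match is a description of letters and does not show that a factor binds, and the absence of letters in this window says nothing about a factor.

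Scrg1 was above the floor in every group and highest with BMP4. The BMP NCSC arrays were at 10.87, 10.40 and 10.34, close together. The rNCSC arrays were at 5.52, 6.04 and 6.69 and the SCSC arrays at 4.41, 5.48 and 4.92. All BMP NCSC arrays were at least 3.65 above the other 6. The BMP NCSC mean of 10.54 ± 0.29 exceeded the rNCSC mean, 6.08 ± 0.58, by 4.45 and the SCSC mean, 4.94 ± 0.53, by 5.60 (n = 3 each). Unlike the differences of Cnmd and Matn4, this one did not start from a floor in either reference group.

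Since Scrg1 is also a gene of glia, markers of peripheral glia are given beside it. Of 9 measured, 6 were tested, and 4 were called higher in BMP NCSC than in rNCSC (Sox10, Erbb3, Cdh19 and S100b), 1 lower (Pou3f1) and 1 neither (Egr2). Of all genes tested, 22.6% were called higher and 21.3% lower in that comparison. Sox10, Erbb3 and S100b passed the filter only with the BMP NCSC arrays and Pou3f1 only with the others, so of the called markers Cdh19 alone, at 4.24 above rNCSC, could have gone either way. The log2 of their summed level, in which the brighter probe sets weigh most, was 13.87 to 14.01 on the BMP NCSC arrays, 8.55 to 10.27 on the rNCSC arrays and 8.53 to 9.06 on the SCSC arrays. Foxd3 and Gfap, at 3.70 ± 0.44 and 3.67 ± 0.41 (n = 3 each), and Pou3f1 were under 4 in BMP NCSC. The part of glial cells in the Scrg1 level was not tested.

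Matn2 was measured by a pair of probe sets and was high with and without BMP4. On the brighter one, rNCSC arrays were at 11.14, 10.08 and 11.08, SCSC arrays at 10.83, 10.48 and 11.47, and BMP NCSC arrays at 11.59, 10.92 and 12.40. All groups overlapped. The means were 10.76 ± 0.60, 10.93 ± 0.50 and 11.64 ± 0.74 (n = 3 each), and BMP NCSC was 0.87 above rNCSC and 0.71 above SCSC. The difference from rNCSC was 0.49 without BMP NCSC 3, 0.53 without rNCSC 2 and 1.23 without BMP NCSC 2. The difference from SCSC was 0.33 without BMP NCSC 3 and 1.07 without BMP NCSC 2. Between arrays of the same number, BMP NCSC was above rNCSC by 0.46, 0.84 and 1.32 and above SCSC by 0.76, 0.44 and 0.93. The second probe set, read on its own scale, gave 9.25 ± 0.44, 9.77 ± 0.15 and 10.17 ± 0.62 (n = 3 each), with differences of 0.92 and 0.40. There BMP NCSC and SCSC overlapped, while the rNCSC arrays, of which the highest was at 9.54, lay just below all arrays of both other groups. On both probe sets rNCSC 2 was the lowest of its group and BMP NCSC 3 the highest of all arrays.

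Comp was at the floor without BMP4 and between 4 and 5 on average with it. It was not tested, as 1 array reached 5. The BMP NCSC arrays were at 5.73, 4.71 and 4.54. The other 6 lay between 3.08 and 3.48, all below the lowest BMP NCSC array by at least 1.05. The mean of 4.99 ± 0.65 was 1.67 above the rNCSC mean of 3.32 ± 0.16 and 1.77 above the SCSC mean of 3.23 ± 0.13 (n = 3 each). BMP NCSC 1 was well above the other arrays of its group.

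The remaining members were at the floor everywhere. Matn1 ranged from 2.51 to 2.77 over the 9 arrays and differed by 0.00 between BMP NCSC and rNCSC. The brighter Matn3 probe set ranged from 3.08 to 3.44, with a difference of -0.01. The second Matn3 probe set, of a type that can also bind other transcripts, ranged from 1.96 to 2.69, and its BMP NCSC arrays (2.20, 1.96 and 2.30) lay just below all others. Chad ranged from 2.81 to 3.27, with groups that overlapped. Cilp was at 3.46, 3.57 and 3.73 in BMP NCSC, barely above the highest other array, by 0.11. These probe sets put no expressed level on Matn1, Matn3, Chad or Cilp, and the number of arrays limits how small a difference could be seen.

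In 5 of the 9 members, namely Cnmd, Matn4, Scrg1, Comp and Cilp, all BMP NCSC arrays lay above all others on the brighter probe set. Among all genes tested, the BMP NCSC arrays lay wholly above the rNCSC arrays for 37.2% and above the SCSC arrays for 38.6%. The count asks that BMP NCSC lie above both other groups at once, while each share is for a single comparison. Comp and Cilp were below the filter and are not among the tested genes, so the count and the shares also do not cover the same set.

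The arrays of BMP NCSC did not order the members alike. Array 3 was the highest for Matn4 and both Matn2 probe sets, array 1 for Cnmd, Scrg1 and Comp. Array 2 was the lowest for Cnmd and Matn2, array 1 for Matn4, and array 3 for Scrg1 and Comp. Hapln1, which encodes the link protein of aggrecan, was at 11.74, 9.72 and 11.80 and so shared its low array with Cnmd. Mmp13, a collagenase of cartilage turnover, was at 3.70, 3.05 and 9.71 and shared its high array with Matn4.

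**Figure D2:**
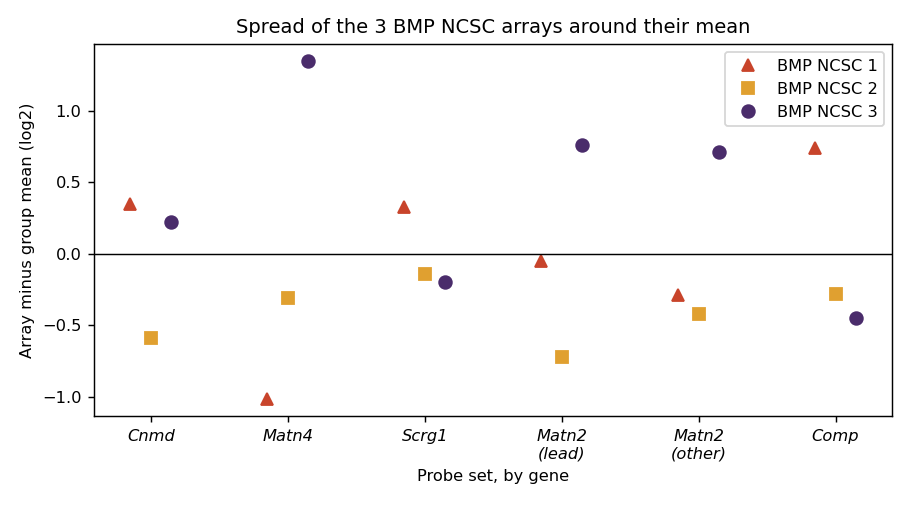
Deviation of each BMP NCSC array from the group mean, in log2 units, for the 6 probe sets of Cnmd, Matn4, Scrg1, Matn2 and Comp. Array 3 lies highest for Matn4 and Matn2 and array 1 for Cnmd, Scrg1 and Comp, so no array is high throughout.

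The difference between DRG and spinal cord spheres in the same medium did not enter the choice of members and was tested. Over all 10320 genes limma called 1, or 0.00969%, with 1413 at an unadjusted p below 0.05. The number called was 71 without rNCSC 2. None of the 4 tested members was called, of which Cnmd and Matn4 were at the floor in both groups. Scrg1 came nearest, with the means given above (n = 3 each). Its log2 difference of 1.14 (SE 0.34, 95% interval 0.36 to 1.93) had an unadjusted limma p of 0.00958 and an adjusted p of 0.238. All rNCSC arrays were above all SCSC arrays, by a gap between 5.52 and 5.48, a separation seen for 20.7% of all genes tested, and for 5.62% with rNCSC higher. A difference of at least 1 was seen for 1.55%. An exact two-sided permutation test gave p = 0.1, the smallest that 3 against 3 arrays allow, and 0.4 after Benjamini-Hochberg adjustment over the 4 members.

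Array rNCSC 3 had the highest Scrg1 value of its group. Without it the difference was 0.84 (limma adjusted p = 0.315), and over 22 alternative settings it lay between 0.84 and 1.43, with adjusted p from 0.123 to 0.622. Among the glial markers, Cdh19 was at 7.46 ± 0.37 in rNCSC against 6.05 ± 0.27 (SCSC; n = 3 each), a log2 difference of 1.40 (limma adjusted p = 0.101, unadjusted 9.2e-05). S100b was 1.71 higher in rNCSC (limma adjusted p = 0.366). For both the arrays did not overlap, as for Scrg1, and the other 4 tested glial markers differed by -0.09 to 0.39. On rNCSC 3 S100b was at 7.95, against 5.02 and 4.69 on the other rNCSC arrays, and Cdh19 was at 7.74, against 7.03 and 7.60. The part of these markers in the Scrg1 values was not tested.

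On the brighter probe sets, the other tested members differed by less than the spread of the arrays. The difference rNCSC minus SCSC was 0.07 for Cnmd (95% interval -0.42 to 0.57), -0.16 for Matn2 (-1.16 to 0.83) and -0.01 for Matn4 (-1.15 to 1.12), with limma adjusted p of 0.923, 0.913 and 0.993. The fit pools the spread of all groups, so the intervals of Cnmd and Matn4 contain the spread of their high BMP NCSC arrays. The exact permutation p for these was 0.3, 0.7 and 1. Cnmd and Matn4 were at the floor in both groups and passed the filter through the BMP NCSC arrays alone. A difference near 0 was thus set in advance for them, and nothing is read from it. On the second Matn2 probe set the difference was -0.52, under the size limit, and all rNCSC arrays lay below all SCSC arrays. Comp, Matn1, Matn3, Chad and Cilp had differences from -0.01 to 0.10 at the floor and were not tested.

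**Figure D3:**
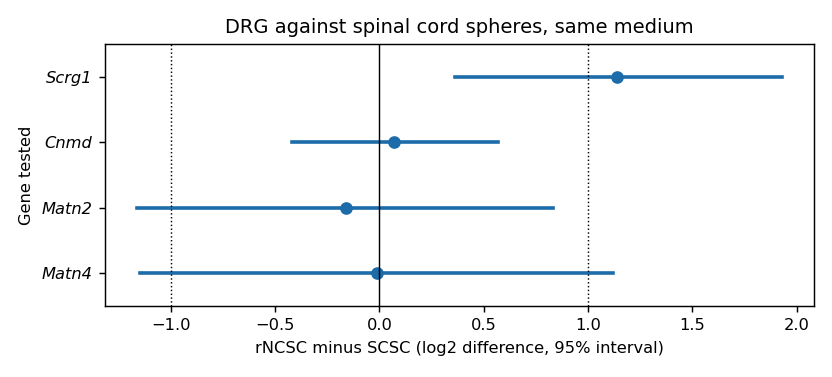
Log2 difference of rNCSC minus SCSC for the 4 tested members, as points with 95% intervals from the limma fit. The dotted lines mark differences of 1 and -1. The Scrg1 interval lies above 0, from 0.36 to 1.93, before any adjustment over the 10320 genes, and the other 3 span 0. Cnmd and Matn4 were at the floor in both groups.

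Genes related to the members by sequence also divided into high and floor genes. In this list of 7, which holds the chondromodulin relative Tnmd, the thrombospondins Thbs1 to Thbs4 that are related to Comp, Chadl and Cilp2, 4 were tested, and 3 were called higher in BMP NCSC than in rNCSC, beside 22.6% of all genes. Thbs1, a thrombospondin of many tissues that limits vessel growth, averaged 10.62 ± 0.44 with BMP4 and 2.78 ± 0.25 in rNCSC (n = 3 each). Thbs2 averaged 6.55 ± 0.98 and 3.78 ± 0.18, and Chadl, a chondroadherin relative of cartilage, 8.46 ± 0.14 and 3.83 ± 0.19. Thbs3 was above 5 on every array and was not called, with a difference of 0.61. Tnmd, a protein of tendon, was at the floor in all groups, with a mean of 2.56 ± 0.13 in BMP NCSC (n = 3), as were Thbs4 and Cilp2. Chad was thus at the floor in spheres where Chadl was not, and Tnmd where Cnmd was not. Thbs1, Thbs2 and Chadl reached 5 on the BMP NCSC arrays alone, which fixed their direction. This list and those below were also chosen with earlier results of these data known.

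The proteins to which matrilins and Comp bind were measured beside them. Of 8 such genes, 7 were tested and all 7 were called higher in BMP NCSC than in rNCSC and than in SCSC. Over all genes tested those shares were 22.6% and 22.9%. The median difference over the 8 was 7.47 and 7.83. Col2a1, the main fibril collagen of cartilage, was 11.00 above rNCSC. Acan, which encodes aggrecan, was 9.21 above it, and Col9a1, a collagen on the fibril surface that binds matrilin-3 and Comp, 9.23. Col11a1 and Col9a3 were already at 8.02 ± 0.45 and 8.42 ± 2.0 (n = 3 each) without BMP4, Col9a3 with an array at 10.68 in rNCSC 3. Col9a2 was at the floor, at 3.71 ± 0.12 in BMP NCSC. Matn1 and Matn3 were at the floor in spheres where most of their binding partners were high. The direction of Col2a1, Col9a1, Acan, Col11a2 and Hapln1 was fixed by the filter, which they passed only with the BMP NCSC arrays. As the list was also chosen with earlier results known, nothing is read from its count beside the share of all genes.

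Further secreted proteins of cartilage were also mostly higher. Of 9 listed, 8 were measured and 5 tested, and all 5 were called higher against both other groups. Over all genes tested, 22.6% were called higher against rNCSC and 22.9% against SCSC. The median difference over the 8 measured was 3.93 against rNCSC and 4.03 against SCSC. Cytl1, a cytokine-like protein of chondrocytes, was at 13.57 ± 0.11 in BMP NCSC, Mgp, an inhibitor of mineralisation, at 13.79 ± 0.11, and Otor at 12.50 ± 0.99 (n = 3 each), from means under 4 in rNCSC. Mia, a relative of Otor, and Prg4, the lubricin of joint surfaces, were 4.25 and 3.61 above rNCSC. Epyc (2.34 ± 0.11 in rNCSC and 5.56 ± 1.7 in BMP NCSC), Ucma (3.94 ± 0.25 and 5.33 ± 0.92) and Snorc (3.68 ± 0.039 and 4.04 ± 0.36) were below the filter. Ucma and Epyc, like Comp, were highest on BMP NCSC 1. All 5 tested genes were at the floor in rNCSC and SCSC, which fixed their direction. Nothing is read from this count either, since the list too was chosen with earlier results known.

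Transcription factors of cartilage were given by the same counts. Of 8 measured, 5 were tested, and Foxc1 alone was called higher in BMP NCSC than in rNCSC (3.39, SE 0.80). Foxc1 and Sox5 (1.13, SE 0.24) were called higher than in SCSC. Of all genes tested, 22.6% and 22.9% were called higher in these comparisons. Foxc1 was at 6.04, 4.65 and 8.45 in rNCSC, highest on rNCSC 3, and was also called without that array. Sox9, the factor that switches on cartilage matrix genes, was at 8.73 ± 0.45 in rNCSC, 8.92 ± 0.074 in SCSC and 7.96 ± 0.24 in BMP NCSC (n = 3 each). Its difference of -0.77 from rNCSC did not reach the size limit (limma adjusted p = 0.0104) and was -0.51 without rNCSC 2. A second Sox9 probe set was called lower than in SCSC (-1.02), as was the Sox9 probe set used here without BMP NCSC 1 (-1.10). Another Sox9 probe set was not called, at -0.15 from rNCSC and -0.40 from SCSC. The Sox9 partners Sox5 and Sox6 were 0.79 and 0.77 above rNCSC (limma adjusted p = 0.0145 and 0.00928), also under the limit. With no limit on size, Sox5, Sox6 and Foxc1 were called higher and Sox9 lower against both groups. Without rNCSC 3 Sox5 was called against rNCSC (1.03), and without BMP NCSC 1 it was not called against SCSC (0.96). With all arrays, 2 of its other probe sets were not called against SCSC (0.93 and 0.99), while another was (1.20). Trps1 was high in all groups, with 1 of its other probe sets called lower than in rNCSC (-1.15). Nkx3-2, Runx3 and Barx2 had means under 4 in all groups.

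Proteases that cut these proteins went both ways. Of 6 measured, 5 were tested. Over all genes tested, 22.6% were called higher in BMP NCSC than in rNCSC and 21.3% lower. Adamts4, an aggrecanase (1.66), and Htra1 (2.15) were called higher in BMP NCSC than in rNCSC, while Adamts7 (-1.79) and Adamts12 (-2.34), both of which cut Comp, were called lower. Adamts7 passed the filter only with the other arrays. Against SCSC, Adamts12 was not called (-1.20), though it was without rNCSC 3. The difference of Adamts12 from rNCSC was -1.38 without rNCSC 3 and, without BMP NCSC 2, was -2.17 and not called (limma adjusted p = 0.0532). Adamts5, the other aggrecanase, differed by 0.20 from rNCSC (0.90 without BMP NCSC 3) and was not called. In rNCSC, Adamts12 was at 7.45, 6.19 and 9.71, again highest on rNCSC 3.

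**Figure D4:**
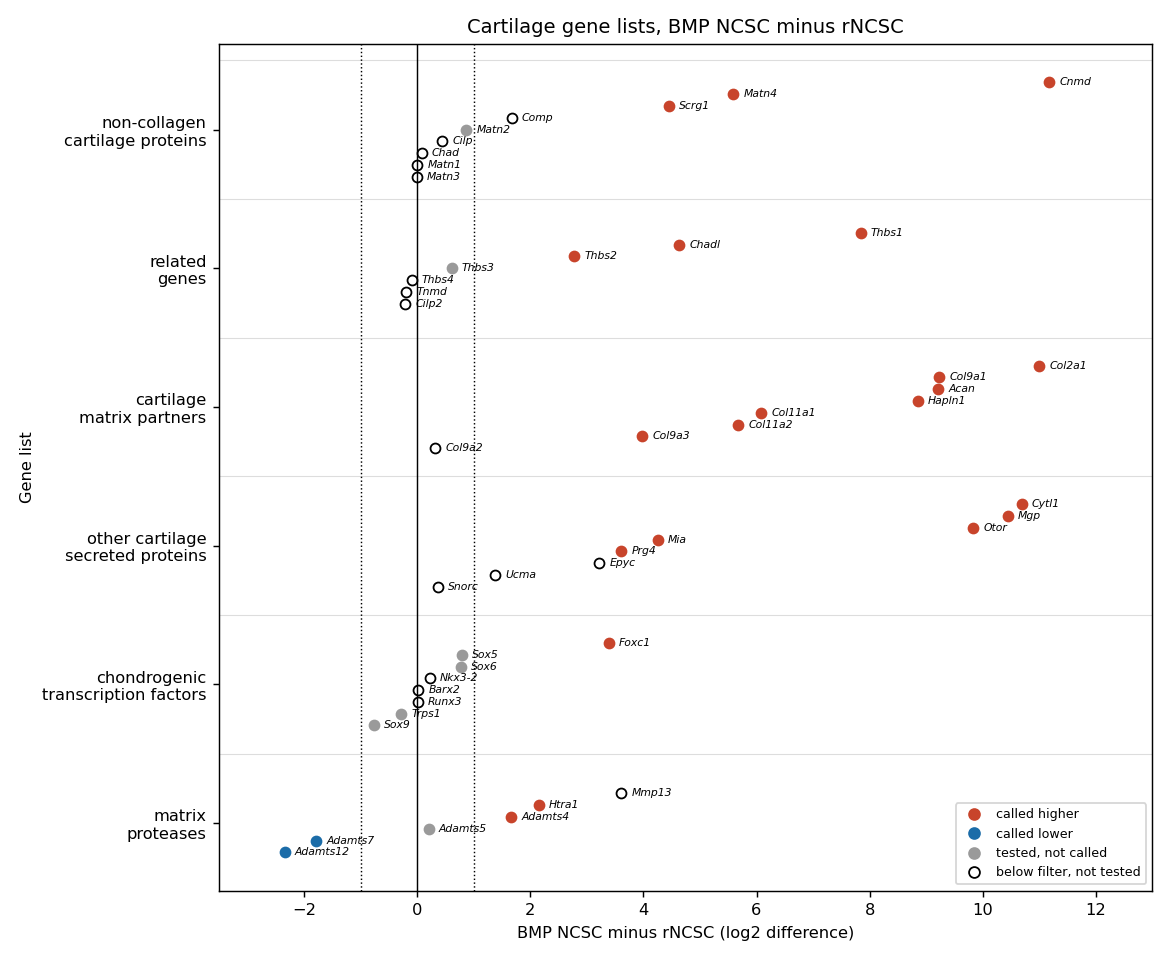
Log2 difference of BMP NCSC minus rNCSC for the 9 members and the genes of 5 related lists. Red points were called higher, blue lower, grey points were tested and not called, and open points were below the filter. All 7 tested partners and all 5 tested secreted proteins lie at 3.61 or higher, with Col9a2 and Snorc within 1 of 0, and the transcription factors other than Foxc1 lie within 1 of 0.

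Markers of other cell types that make some of these proteins were mixed. Of 4 markers of tendon and perichondrium, Mkx (5.68) and Fmod (8.78) were called higher in BMP NCSC than in rNCSC, a direction fixed by the filter, which both passed only with the BMP NCSC arrays, while Scx and Tnmd were at the floor. The log2 of their summed level, in which the brighter probe sets weigh most, was 11.85 to 13.12 in BMP NCSC, 5.39 to 5.43 in rNCSC and 5.26 to 5.29 in SCSC. In BMP NCSC this sum was mostly Fmod, which was at 11.83, 11.48 and 13.03, beside Mkx at 9.25, 9.68 and 9.13. Of 4 osteoblast markers measured, Dmp1 was higher (8.91) and Alpl lower (-1.60), again in directions the filter fixed, and Sp7 and Ibsp were at the floor. Their summed log2 level was 10.15 to 11.74 in BMP NCSC, 6.05 to 6.27 in rNCSC and 6.26 to 6.29 in SCSC. In BMP NCSC that sum was nearly all Dmp1, which was at 11.72, 10.58 and 10.10. The part of such cells in the members' values was not tested. All 4 endothelial and all 4 macrophage markers were under 4 in every group, as were 3 of 4 skeletal muscle markers.

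The genes most like each tested member were found by the root mean square difference of log2 values over the 9 arrays, after each gene was centred on its own mean. For Cnmd these were Col2a1 (0.27), the opioid precursor gene Penk (0.30) and Serpina3n (0.34). For Matn4 they were Nfatc2 (0.26), Fgl2 (0.28) and Hspg2 (0.35), which encodes the basement membrane proteoglycan perlecan. For Scrg1 they were Atxn1 (0.34), the glial cadherin Cdh19 (0.34) and Pcdhb9 (0.39). For Matn2, whose own range was small, they were Araf (0.29), Sdc1 (0.29) and Cog7 (0.30). The arrays form 3 groups, so closeness mainly says that the group means lay the same distance apart.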

How the data were processed

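The authors deposited log2 expression values, 1 for each probe set on each array, computed with GCRMA per the submitters' processing notes. GCRMA fits background from probe sequence and then quantile-normalizes, so any difference in RNA content between cells is not seen. Of 45101 probe sets, 34958 had 1 gene symbol, 932 had several and 9211 were not listed in the platform annotation. Symbols were updated by gene identifier, found for 34754 in the GRCm38.p6 gene table. A gene is represented by its brightest probe set, and all probe sets of the members are reported. limma 3.58.1 in R 4.3.3 was fitted to 10320 genes with group means over 9 arrays, two-sided moderated tests and Benjamini-Hochberg adjustment, and tested on simulated data. Exact permutation tests used scipy 1.17.1 in Python 3.11.15.

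The members and gene lists were chosen with earlier results of these data known. Named genes are all members, the genes of these lists, and the 3 genes nearest each tested member. Settings tried were other filters, probe set rules, normalizations, variance models, thresholds, a replicate block and leaving out each array. With an array left out, the genes tested were kept. Clec3a, Runx2 and Bglap, also listed, were not analysed here.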

Additional observations from a re-analysis of the deposited data

How the results depend on the processing

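Over 22 alternatives the difference of BMP NCSC from rNCSC ranged from 10.99 to 11.46 for Cnmd, from 4.92 to 6.10 for Matn4 and from 4.17 to 4.82 for Scrg1, given as a description, since these genes were chosen on it. Between rNCSC and SCSC no member was called in any alternative. Signs that turned were of differences near 0: Matn2 was at 0.18 without rNCSC 2 and 0.10 without SCSC 3, and Matn4 at 0.06 with array weights, 0.03 without rNCSC 3 and 0.09 without SCSC 3. With an array left out, Matn2 ranged from -0.39 to 0.18 and Matn4 from -0.06 to 0.09.

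The number of genes called between rNCSC and SCSC, 1 as reported, was 0 with only the 6 arrays compared, 0 with the replicate block, 0 at an adjusted p below 0.01, 4 with trend and robust variances and 14 with array weights. It ranged from 0 to 71 with an array left out, the highest without rNCSC 2. Against rNCSC and SCSC, the genes called in BMP NCSC numbered 7532 and 8050 with every probe set tested, and 8043 and 8223 with no size limit, in place of 4532 and 4839.

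Arrays of equal number were not treated as pairs. Correlations of their deviations from the group means ran from 0.04 to 0.30, so not every one was over 0.1. All 9 were positive, 13 of the 18 between different numbers were negative, and in 16 of 18 cases an array correlated best with its own number in another group. Deviations within a group cancel out, so these counts depend on each other and are not separate evidence. The pairing is a hint from the data, not from the design. With the replicate block no member was called between rNCSC and SCSC, and Matn2 in BMP NCSC (0.87 and 0.71 above rNCSC and SCSC) was kept from a call by the size limit alone. Comp was below the filter used here and so has a difference but no call. It was called higher in BMP NCSC against both groups with no filter and with a filter value of 4. Only its BMP NCSC arrays reached 4, and Comp was chosen with these contrasts in view, so nothing is read from those calls.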
